A study of Mus musculus with 12 samples.

Results

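The 10 genes described here were AP-1 subunits and other immediate early genes, namely Fos, Fosb, Jun, Junb, Jund, Egr1, Ier2, Atf3, Nr4a1 and Dusp1. They were chosen by gene symbol from a list of 10, all 10 of which were present among the 12199 genes of the deposited table, and all 10 passed the filter on low values. RNA had been sequenced from whole bone marrow mononuclear cells of C57BL/6 mice of 4 genotypes. WT mice carried no mutant allele. DF mice carried Dnmt3aFlox/+ with MxCre and a Flt3 ITD allele, TF mice were Tet2+/- with Flt3ITD/+, and TFD mice carried all of these changes together. The Flt3 ITD allele, which encodes a receptor tyrosine kinase with an internal tandem duplication, was therefore shared by every mutant group. Per the methods of the study, all animals, WT included, received poly(I:C) at 8 to 10 weeks of age and were analysed 8 to 9 weeks later. The Cre is driven by the interferon-responsive Mx1 promoter, so Dnmt3a is deleted in interferon-responsive cells at large and not in the blood lineage alone, while the Tet2 deletion is carried in the germ line. WT mice were obtained from a core facility, and Mx-Cre is not given for them or for TF in the labels. The 11 libraries comprised 3 WT, 3 DF, 3 TF and 2 TFD, and TFD replicate 3 was not analysed here.

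AP-1 is a dimer of basic leucine zipper proteins, in which a Jun protein pairs with another Jun, with a Fos protein or with an Atf protein. The genes of Fos, Jun, Egr1, Ier2, Atf3 and Nr4a1 are transcribed within minutes of a stimulus from factors that are already present in the cell, without new protein synthesis, and most of their mRNAs are short-lived. Growth factor receptors such as Flt3 reach them through Ras and the MAP kinases ERK, JNK and p38. Dusp1 is induced by the same signals and encodes a phosphatase that removes phosphate from MAP kinases, which closes the loop. In myeloid cells, AP-1 proteins are known for their part in monocyte and macrophage differentiation.

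Each library held between 8274153 and 15900904 counted reads over the table, and each member had at least 584 reads in every library, the lowest being Nr4a1 in WT replicate 2. Levels below are log2 CPM, a read count scaled to the size of its library with edgeR's TMM factors and put on a log2 scale. A gene was called when edgeR's quasi-likelihood test, fitted to all 4 genotypes together over 12175 genes, gave a Benjamini-Hochberg adjusted p under 0.05. Nothing in the labels says more than that the libraries are separate samples, so p values measure the spread between these libraries. Xist reached 10000 or more reads in WT replicate 3, TF replicate 3 and TFD replicate 2, so mice of both sexes were included. In bulk marrow, fewer cells of a type and less RNA per cell cannot be told apart, which applies to every difference below.

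Atf3 was the only member called higher than in WT in each of the mutant genotypes, and the only one whose level in every mutant library exceeded that in every WT library. Jun was also higher in TFD. The other 8 members were not called in any comparison, and no member was called lower. No member was called between mutant genotypes. Members differed strongly in abundance, from Fos, among the most abundant transcripts of these libraries, to Egr1.

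The bases before the start sites were searched for the letters of elements known from immediate early promoters. RefSeq promoters of GRCm38.p6, the assembly that mm10 names, were matched by symbol for 8 of the 10 genes, and the following are the 150 bases before the start of the most abundant member, of the pair called in the comparisons, of Nr4a1, to which Fos was the nearest of all tested genes in pattern, and of the phosphatase. Capitals mark matches to the motifs CGTCA (written TGACG on the other strand), TGACGTCA and TATAAA, all read 5′ to 3′ on the strand of the gene.
Atf3, chr1:191183334-191183483, reverse strand: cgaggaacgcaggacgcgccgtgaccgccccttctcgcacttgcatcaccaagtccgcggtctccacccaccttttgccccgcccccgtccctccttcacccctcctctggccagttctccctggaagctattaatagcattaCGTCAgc
Jun, chr4:95052223-95052372, reverse strand: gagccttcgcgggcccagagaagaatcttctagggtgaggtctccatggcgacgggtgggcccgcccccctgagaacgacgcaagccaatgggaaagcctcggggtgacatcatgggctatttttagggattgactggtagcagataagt
Fos, chr12:85473740-85473889, forward strand: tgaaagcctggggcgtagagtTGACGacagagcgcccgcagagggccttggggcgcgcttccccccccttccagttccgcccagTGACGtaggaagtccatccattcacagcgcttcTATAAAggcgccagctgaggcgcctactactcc
Nr4a1, chr15:101266696-101266845, forward strand: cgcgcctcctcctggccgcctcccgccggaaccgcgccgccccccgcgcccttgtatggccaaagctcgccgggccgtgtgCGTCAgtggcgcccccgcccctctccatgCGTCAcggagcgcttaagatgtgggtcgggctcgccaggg
Dusp1, chr17:26508473-26508622, reverse strand: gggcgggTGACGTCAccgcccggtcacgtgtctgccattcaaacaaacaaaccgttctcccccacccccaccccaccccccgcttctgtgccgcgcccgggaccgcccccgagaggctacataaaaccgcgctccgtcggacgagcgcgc
The motif search covered both strands from 250 bases before to 50 bases after the start. TGACGTCA is the cyclic AMP response element, which CREB and ATF proteins bind, and CGTCA is its core. The core was present in 6 of 8 members, Atf3, Dusp1, Fos, Fosb, Junb and Nr4a1, and in 20.8% of the 32851 promoters of that length. The windows of these members were rich in G and C, from 58.7% in Fos to 72.3% in Nr4a1, with Jund at 46.7%, against a median of 52.7% over all promoters. The part of base composition in these shares was not tested. In Atf3 the core began at position −7, counted from 0 at the start base, and in Nr4a1 it occurred 4 times. The whole element, which holds the core on both strands, was present in Dusp1 alone, at position −143, and in 1.79% of all promoters. TATAAA was found in Fos at −33 and in Junb at the start itself, and in 13.6% of all promoters. TGAGTCA, to which Fos and Jun dimers bind, GCGTGGGCG, the site of Egr proteins, and the CArG box of serum response factor were found in 0 of 8, and in 5.2%, 0.612% and 1.63% of all promoters. Jun, called in TFD, had no exact match to these motifs in the window, and Atf3 shared CGTCA with 5 members that were not called. Near matches were not searched for, such as TGACATCA in the printed bases of Jun, which differs from TGACGTCA by a single base. These matches describe the letters of the window and were not measured as bound sites.

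Per kilobase of exon, Fos stood highest of the 10 in every genotype and Egr1 lowest. In WT, Fos had a mean of 9.20 ± 0.26 log2 CPM per kb (SD, n = 3), which ranked 81 among the tested genes. Dusp1 followed at 7.64 ± 0.13, Junb at 7.18 ± 0.44, Jun at 6.89 ± 0.16 and Ier2 at 6.79 ± 0.21. Then came Fosb at 6.33 ± 0.18, Jund at 6.21 ± 0.37, Atf3 at 5.81 ± 0.22, Nr4a1 at 5.38 ± 0.46 and Egr1 at 4.95 ± 0.33 (SD, n = 3 each). In this WT order only 2 steps separated neighbours whose ranges did not overlap, from Fos to Dusp1 and from Ier2 to Fosb. Fos ranked between 71 and 105 among tested genes in the 4 genotypes. Atf3 moved from the 8th place of the members in WT to the 6th in DF, TF and TFD, where its range still overlapped that of the next member below it, Jund in DF and Fosb in TF and TFD.

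**Figure D1:**
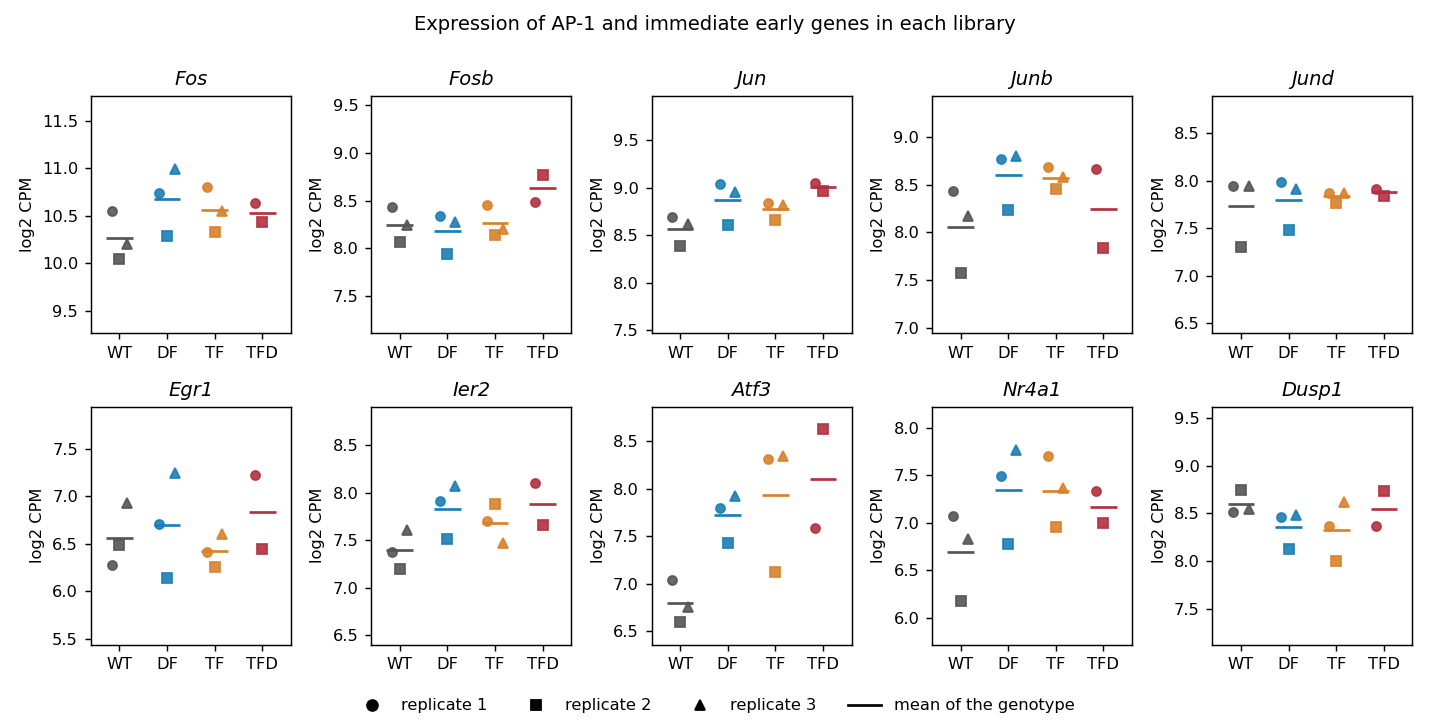
Level of each of the 10 genes in log2 CPM (vertical axes, all spanning the same number of log2 units) in each library, grouped by genotype on the horizontal axis, with marker shapes for replicate numbers and a bar for the mean of the genotype. Only for Atf3 do all mutant libraries, the lowest at 7.13, lie above all WT libraries, the highest at 7.04.

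Fos and Fosb encode the Fos partners of the AP-1 dimer, which bind DNA only together with a Jun protein. Fos lies on chromosome 12 of mm10 from 85473901 to 85477270 on the forward strand. Its level was 10.55, 10.04 and 10.20 in the 3 WT libraries, 10.74, 10.29 and 10.99 in DF, 10.80, 10.33 and 10.55 in TF, and 10.63 and 10.44 in TFD. The lowest value of each mutant genotype lay within the WT range, so the groups overlapped. Relative to WT, the log2 fold change in DF was 0.42 (SE 0.19, 95% interval −0.0009 to 0.84, adjusted p of 0.106). It was 0.29 in TF (95% interval −0.13 to 0.71, adjusted p of 0.264) and 0.26 in TFD (95% interval −0.21 to 0.72, adjusted p of 0.415). These intervals take in both no difference and increases larger than the one called for Jun in TFD, given below. Without DF replicate 2, the lowest DF library, the difference in DF was 0.59 (adjusted p of 0.0409, against 0.0409 to 0.408 over all alternatives), and without DF replicate 3 it was 0.22 (adjusted p of 0.408).

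Fosb lies on chromosome 7 from 19302696 to 19310045 on the reverse strand. Its level ranged from 8.07 to 8.43 in WT, from 7.94 to 8.33 in DF and from 8.14 to 8.45 in TF, and was 8.49 and 8.77 in TFD. Both TFD libraries lay above every other library, whereas WT, DF and TF overlapped. Its log2 difference from WT was −0.06 in DF (95% interval −0.37 to 0.25, adjusted p of 0.755), 0.02 in TF (−0.29 to 0.32, adjusted p of 0.944) and 0.38 in TFD (95% interval 0.04 to 0.72, adjusted p of 0.0922). The sign turned in DF with a library left out and in TF with the scaling, the filter or a library left out, and the difference in TFD did not pass the threshold. How many of all tested genes had the libraries of a given genotype set apart in this way was not counted, here or for the genes below.

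Jun, Junb and Jund encode the partners that every AP-1 dimer needs. Jun is the main phosphorylation target of JNK, Junb often opposes it, and Jund is the member made more steadily in resting cells. Jun lies on chromosome 4 from 95049036 to 95052222 on the reverse strand. Its level was 8.69, 8.38 and 8.62 in WT, 9.03, 8.60 and 8.96 in DF, 8.84, 8.66 and 8.81 in TF, and 9.05 and 8.96 in TFD. Both TFD libraries lay above all WT libraries, while 1 DF and 1 TF library lay within the WT range. TFD exceeded WT for Jun, with a log2 fold change of 0.44 (SE 0.15, 95% interval 0.12 to 0.75, adjusted p of 0.0412). The difference was 0.31 in DF (95% interval 0.02 to 0.59, adjusted p of 0.0834) and 0.20 in TF (95% interval −0.08 to 0.49, adjusted p of 0.249). The call in TFD was lost, with the value between 0.35 and 0.49, when WT replicate 2 (adjusted p of 0.137), WT replicate 3 (0.0719), TF replicate 1 (0.0576), TFD replicate 1 (0.155) or TFD replicate 2 (0.0784) was left out. Without DF replicate 2 the difference in DF was 0.43 (adjusted p of 0.0318, against 0.0318 to 0.31 over all alternatives), and without DF replicate 1 it was 0.20 (adjusted p of 0.31). Over the alternatives the adjusted p in TFD lay between 0.0185 and 0.155.

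Junb lies on chromosome 8 from 84976909 to 84978748 on the reverse strand. Its WT libraries were spread widely, at 8.44, 7.57 and 8.17, against 8.77, 8.23 and 8.80 in DF, 8.69, 8.46 and 8.58 in TF, and 8.66 and 7.83 in TFD. The TF range lay just above the WT range, and the others overlapped it. Junb differed from WT by 0.52 in DF on the log2 scale (95% interval 0.01 to 1.03, adjusted p of 0.102), 0.47 in TF (95% interval −0.04 to 0.99, adjusted p of 0.138) and 0.20 in TFD (95% interval −0.37 to 0.77, adjusted p of 0.609). The TFD value became −0.27 (adjusted p of 0.561, against 0.164 to 0.995 over all alternatives) without TFD replicate 1. The adjusted p of Junb ran over the alternatives from 0.0103 to 0.333 in DF and from 0.0134 to 0.424 in TF.

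Jund lies on chromosome 8 from 70697739 to 70700616 on the forward strand and showed the smallest differences of the Jun genes. Its level ranged from 7.31 to 7.95 in WT, 7.48 to 7.99 in DF, 7.77 to 7.88 in TF and 7.84 to 7.92 in TFD, so that nearly all libraries lay within the WT range. On the log2 scale Jund differed from WT by 0.05 in DF (95% interval −0.31 to 0.41, adjusted p of 0.837), 0.08 in TF (−0.28 to 0.44, adjusted p of 0.750) and 0.12 in TFD (−0.29 to 0.52, adjusted p of 0.688). Differences as large as those of Atf3, given below, lay outside each of these intervals.

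Atf3 encodes a leucine zipper protein of the ATF/CREB family that pairs with Jun proteins and that is induced by stress signals, among them amino acid shortage and inflammatory stimuli. It lies on chromosome 1 from 191170297 to 191183333 on the reverse strand. In WT its level was 7.04, 6.60 and 6.75, which corresponds to 131, 96.7 and 108 CPM. In DF it was 7.80, 7.43 and 7.92, in TF 8.31, 7.13 and 8.35, and in TFD 7.58 and 8.63, or 192 and 395 CPM. TF replicate 2 was the lowest mutant library and stood only just above the highest WT library. Over all tested genes, 16% had every mutant library above every WT library, so this separation was a common one in these data.

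Atf3, whose promoter is printed above, was raised relative to WT in DF, with a log2 fold change of 0.93 (SE 0.31, 95% interval 0.26 to 1.59, adjusted p of 0.031). It was higher by 1.22 in TF (SE 0.31, 95% interval 0.55 to 1.89, adjusted p of 0.00883) and by 1.39 in TFD (SE 0.33, 95% interval 0.66 to 2.11, adjusted p of 0.00868). In linear terms these were 1.90-fold, 2.33-fold and 2.62-fold differences, and all 8 mutant libraries showed the direction. The 3 values rest on the same WT libraries. The call in DF was lost when WT replicate 2 (0.83, adjusted p of 0.105), WT replicate 3 (0.86, adjusted p of 0.0952), DF replicate 1 (0.87, adjusted p of 0.0861) or DF replicate 3 (0.79, adjusted p of 0.0957) was left out. The call in TF held with each library left out, between 1.03 and 1.52. The call in TFD was lost without TFD replicate 2, when the difference was 0.78 (adjusted p of 0.138). With a term for libraries of at least 10000 Xist reads, which included the highest TF and the highest TFD library, Atf3 was higher by 1.06 in DF (adjusted p of 0.0123), 1.18 in TF (adjusted p of 0.00517) and 1.23 in TFD (adjusted p of 0.0101). Over all alternatives the adjusted p lay between 0.00034 and 0.105 in DF, 0.000821 and 0.0418 in TF, and 0.00089 and 0.138 in TFD.

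**Figure D2:**
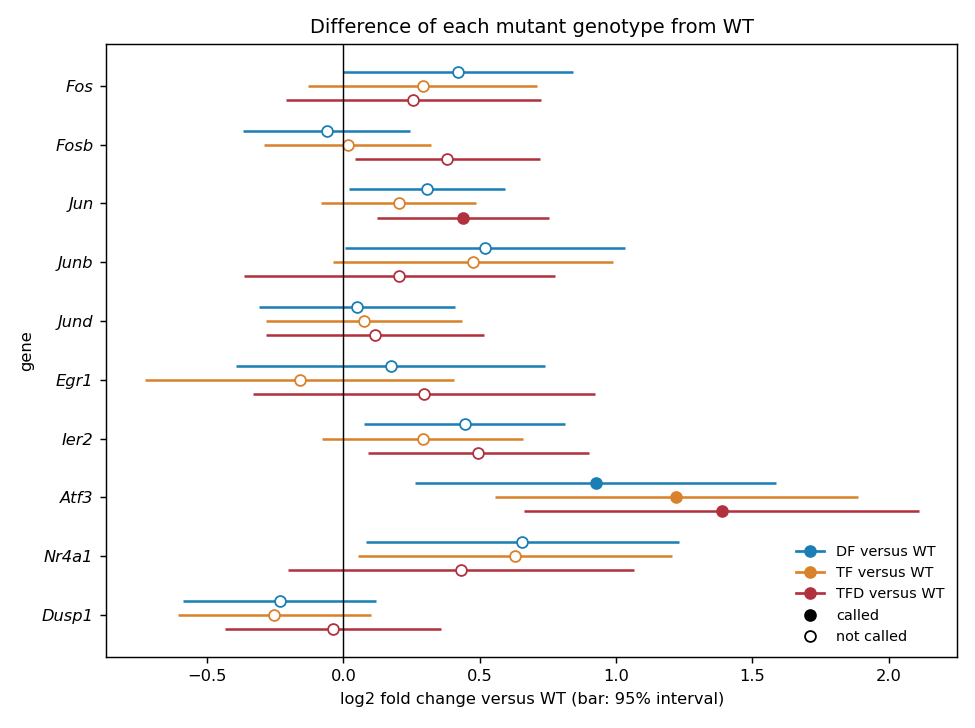
Log2 fold change against WT (horizontal axis) of each of the 10 genes (vertical axis) in DF, TF and TFD, with bars for the 95% interval and filled points for genes called at an adjusted p under 0.05. The filled points are Atf3 in each genotype, at 0.93, 1.22 and 1.39, and Jun in TFD at 0.44.

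Egr1 encodes a zinc finger transcription factor that promotes monocytic differentiation. It lies on chromosome 18 from 34861207 to 34864956. Its level was 6.28, 6.49 and 6.93 in WT, 6.71, 6.14 and 7.24 in DF, 6.41, 6.26 and 6.60 in TF, and 7.22 and 6.45 in TFD. Each mutant genotype had libraries on both sides of the WT mean of 6.57. Egr1 differed from WT by 0.17 in DF on the log2 scale (95% interval −0.39 to 0.74, adjusted p of 0.624), −0.16 in TF (−0.73 to 0.41, adjusted p of 0.661) and 0.30 in TFD (−0.33 to 0.92, adjusted p of 0.488). The sign turned in each genotype with at least 1 library left out, as it did in DF at −0.17 without DF replicate 3 (adjusted p of 0.627, against 0.23 to 0.995 over all alternatives).

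Nr4a1 encodes an orphan nuclear receptor, Nur77, which is needed for the patrolling type of monocyte. It lies on chromosome 15 from 101266846 to 101274794 on the forward strand. Its level was 7.07, 6.18 and 6.83 in WT, 7.49, 6.78 and 7.76 in DF, 7.70, 6.95 and 7.37 in TF, and 7.33 and 6.99 in TFD. In each mutant genotype all libraries but the lowest lay above the WT range, and the lowest lay within it. Relative to WT, the log2 fold change of Nr4a1 was 0.66 in DF (SE 0.27, 95% interval 0.08 to 1.23, adjusted p of 0.0686), 0.63 in TF (SE 0.27, 95% interval 0.05 to 1.20, adjusted p of 0.0838) and 0.43 in TFD (95% interval −0.21 to 1.07, adjusted p of 0.309). None of these passed the threshold. DESeq2 placed Nr4a1 past it in DF (0.62, adjusted p of 0.0449) and in TF (0.61, adjusted p of 0.0488), and a fit of only the groups compared did so in DF (0.62, adjusted p of 0.048). Without DF replicate 2 the difference in DF was 0.89 (adjusted p of 0.0213), and without TF replicate 2 that in TF was 0.80 (adjusted p of 0.0478). It was 0.41 in DF without DF replicate 3 (adjusted p of 0.276) and 0.41 in TF without WT replicate 2 (adjusted p of 0.278). Over all alternatives the adjusted p lay between 0.00462 and 0.276 in DF, between 0.0054 and 0.287 in TF and between 0.0278 and 0.69 in TFD.

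Ier2 encodes a nuclear protein induced by growth factors, and lies on chromosome 8 from 84661331 to 84662852 on the reverse strand. Its level was 7.37, 7.20 and 7.61 in WT, 7.91, 7.51 and 8.07 in DF, 7.71, 7.88 and 7.47 in TF, and 8.11 and 7.66 in TFD. Both TFD libraries exceeded the highest WT library, and the lowest DF and TF libraries did not. For Ier2 the log2 fold change was 0.44 in DF (95% interval 0.08 to 0.81, adjusted p of 0.0552), 0.29 in TF (−0.08 to 0.66, adjusted p of 0.203) and 0.50 in TFD (0.09 to 0.90, adjusted p of 0.0695). The value in DF passed the threshold with only the groups compared (0.41, adjusted p of 0.0466) and without DF replicate 2 (0.59, adjusted p of 0.0233), TF replicate 3 (0.44, adjusted p of 0.0443) or TFD replicate 1 (0.44, adjusted p of 0.0407), and that in TFD without TFD replicate 2 (0.71, adjusted p of 0.0388). The value was 0.29 in DF without DF replicate 3 (adjusted p of 0.23) and 0.25 in TFD without TFD replicate 1 (adjusted p of 0.46). Over all alternatives the adjusted p lay between 0.0233 and 0.23 in DF and between 0.0388 and 0.46 in TFD.

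Dusp1, the MAP kinase phosphatase, lies on chromosome 17 from 26505591 to 26508472 on the reverse strand. Its level was 8.51, 8.74 and 8.54 in WT, 8.46, 8.13 and 8.49 in DF, 8.36, 8.0 and 8.62 in TF, and 8.36 and 8.74 in TFD. All 3 DF libraries lay under the lowest WT library, DF replicate 2 the farthest, while TF and TFD overlapped WT. Its log2 fold change was −0.23 in DF (95% interval −0.59 to 0.12, adjusted p of 0.277), −0.25 in TF (−0.61 to 0.10, adjusted p of 0.246) and −0.04 in TFD (−0.43 to 0.36, adjusted p of 0.901). The sign in TFD turned, to 0.14, without TFD replicate 1.

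Counted together, DF had 1 of the 10 genes called higher than in WT, TF had 1 and TFD had 2, and 0 were called lower in each. Of all 12175 genes tested, 21% were called higher and 16.6% lower in DF, 19% higher and 15.6% lower in TF, and 14.7% higher and 11.6% lower in TFD. With all 11 libraries, the members' shares of calls were near or below these backgrounds, so these counts set the 10 genes apart in no genotype. At an unadjusted p under 0.05, 5 of 10 passed in DF (Atf3, Ier2, Jun, Junb and Nr4a1), 2 in TF (Atf3 and Nr4a1) and 4 in TFD (Atf3, Fosb, Ier2 and Jun), with no correction for testing. Over all tested genes 47.3%, 45.3% and 38% passed at that level, so these counts too were near or below the background. The median log2 fold change of the 10 genes was 0.36 in DF against 0.05 over all tested genes, 0.25 in TF against 0.02, and 0.34 in TFD against 0.01. The count called in DF depended on single libraries, from 0 to 5 of 10 with a library left out. It was 5, all higher, without DF replicate 2, where 1978 of 12174 tested genes were called higher.

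Between mutant genotypes no difference of the 10 genes passed the threshold. EdgeR's test called 0 of 10 in DF versus TF, where 5.94% of all genes were called, 0 of 10 in DF versus TFD, where 0% were, and 0 of 10 in TF versus TFD, where 0.0164% were. DESeq2 also called 0 of 10 in each, where it called 8.8%, 2.12% and 1.08% of all genes. At an unadjusted p under 0.05 edgeR's test gave 0, 1 and 1 of the 10, the gene being Fosb, beside 19%, 14.2% and 8.77% of all genes. For Fosb the log2 difference was −0.44 in DF versus TFD (95% interval −0.78 to −0.10, unadjusted p of 0.0146, adjusted p of 0.246) and −0.37 in TF versus TFD (95% interval −0.71 to −0.03, unadjusted p of 0.0368, adjusted p of 0.538). For Atf3 the difference was −0.30 in DF versus TF (95% interval −0.95 to 0.36), −0.46 in DF versus TFD (−1.18 to 0.26) and −0.17 in TF versus TFD (−0.89 to 0.56). The intervals reach nearly as far as the difference of DF from WT or farther, so a graded level of Atf3 across the mutant genotypes was not resolved by 2 or 3 libraries a group.

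Variation among libraries of one genotype was large for several of the genes. The residual SD of log2 CPM about the genotype means was 0.50 for Atf3, 0.43 for Nr4a1, 0.41 for Egr1 and 0.37 for Junb, against a median of 0.19 over the 12175 tested genes. Among the 2295 genes at least as abundant as the lowest member, whose median was 0.15, these SDs exceeded those of 99.3%, 98.8%, 98.6% and 98% of genes. Fos (0.27), Jund (0.25), Ier2 (0.25) and Dusp1 (0.23) were intermediate, and Fosb (0.19) and Jun (0.16) varied least.

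In several libraries most of the 10 genes deviated in the same direction. In DF replicate 2 all 10 genes lay below their DF mean, with a median deviation of −0.32 log2 units, and in WT replicate 2 and TF replicate 2 9 of 10 did, with medians of −0.20 and −0.15. In DF replicates 1 and 3 all 10 lay above it, with medians of 0.12 and 0.20. In TFD replicate 2 most of the 10 genes, but not Atf3, lay below the mean. Atf3 was 0.52 above it, as Dusp1 and Fosb were by 0.19 and 0.14, while the other 7 genes, Egr1 and Junb with them at −0.39 and −0.42, were below.

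**Figure D3:**
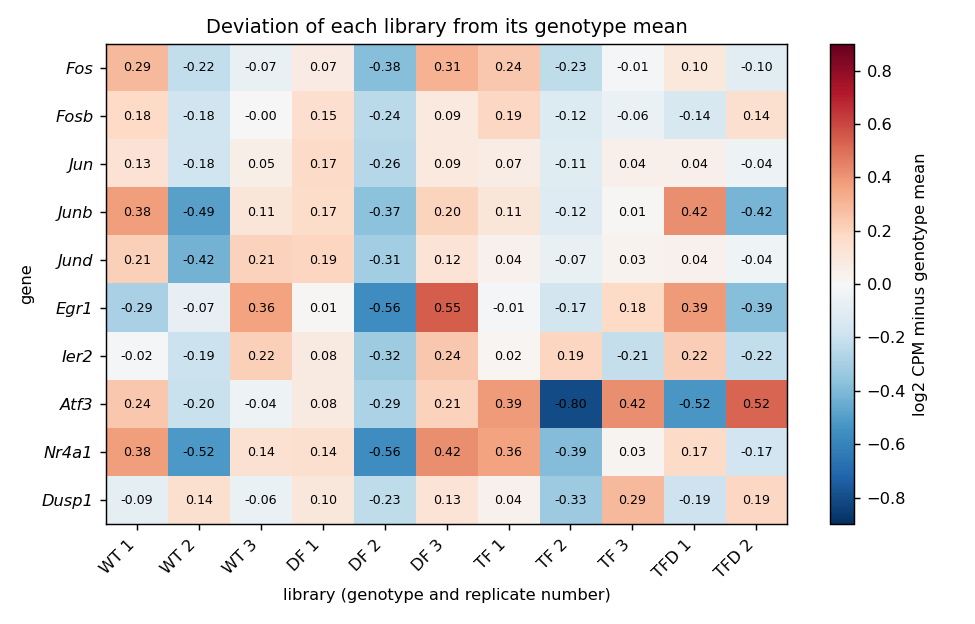
Deviation of each library (horizontal axis, genotype and replicate number) from the mean of its genotype, in log2 CPM, for each of the 10 genes (vertical axis), with the value printed in each cell and the colour scale at the right. DF 2 is below the mean for all 10 genes, and Atf3 ranges from −0.80 in TF 2 to 0.52 in TFD 2.

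The genes whose pattern over the 11 libraries was nearest to that of Fos, by the root mean square difference of centred log2 CPM, were Adgre5 (0.11), Aup1 (0.14), Actg1, Plekho2 and Irak2 (0.15 each). The nearest member to Fos was Jun, at 0.16. For Jun they were Adck2 (0.09), Sugp1, Ergic3, Pfkl (0.10, 0.10 and 0.11) and Pde4a (0.11), with Jund the nearest member at 0.15. Fos was the nearest of all tested genes to Nr4a1, at 0.20. The nearest member to Atf3 was Nr4a1, at 0.47, which ranked 635 among all tested genes. Libraries, depth and cell makeup are common to all these values, which are given as a description.

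Among the remaining AP-1 and related leucine zipper genes, a share below that of all tested genes was called. Of 22 listed, 19 were tested, and 4 were called higher and 2 lower in DF, 2 and 2 in TF, and 1 and 1 in TFD, with medians of 0.17, 0.04 and 0.05. In either direction these were 31.6%, 21.1% and 10.5% of the list, while 37.6%, 34.6% and 26.3% of the whole set tested were called. Batf3, a partner of Jun that is needed for a class of dendritic cells, was higher by 1.94 in DF (SE 0.59), 3.49 in TF (SE 0.55) and 2.82 in TFD (SE 0.59), with adjusted p of 0.0202, 0.00048 and 0.00403. Its WT libraries lay between −2.32 and 0.12 log2 CPM, against 0.49 to 1.45 in DF, and the call in DF was lost without WT replicate 2 (adjusted p of 0.0666), WT replicate 3 (0.0865), DF replicate 1 (0.0553) or DF replicate 2 (0.0697), at values from 1.46 to 1.86, where the adjusted p over all alternatives ran from 0.0043 to 0.0865. The size of the Batf3 difference depended on the setting, from 1.05 to 2.98 in DF, 2.21 to 4.56 in TF and 1.75 to 3.89 in TFD, the highest value in each being that without WT replicate 1, and the calls in TF and TFD held under all 19 alternatives. Bach2, a repressor that acts in B cells, was lower by −4.10 in DF (adjusted p of 1.86e-05), −2.31 in TF (adjusted p of 0.000427) and −2.58 in TFD (adjusted p of 0.000808), where it was −3.35 without TFD replicate 2. Of the Fos relatives, Fosl2 differed from WT by −0.01, −0.22 and −0.14 and was not called. Fosl1 was lower in TF by −0.99 (adjusted p of 0.0482), a call lost with limma (−0.70, adjusted p of 0.0777), with only the groups compared (−1.0, adjusted p of 0.0569) and, at values from −1.16 to −0.64, without WT replicate 1 or 3, DF replicate 1 or any of the 3 TF replicates. Without WT replicate 3 the genes of this list called fell to 2 in DF and 2 in TF, and to 2 in TF also without TF replicate 1 or 2.

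Other immediate early genes were called about as often as genes at large. Of 48 listed, 41 were tested, and 6 were called higher and 9 lower in DF, 6 and 7 in TF, and 4 and 6 in TFD, with medians of −0.05, −0.12 and −0.04. The called shares were 36.6%, 31.7% and 24.4%, near the 37.6%, 34.6% and 26.3% of all tested genes, so the list did not stand apart by its counts. The total called was 9 in DF without DF replicate 1, 8 in TF without TF replicate 1 and 5 in TFD without WT replicate 2. Klf4, a zinc finger factor of monocytes, was higher by 1.93 in DF (adjusted p of 7.61e-06), 1.93 in TF (adjusted p of 6.1e-06) and 2.01 in TFD (adjusted p of 1.08e-05). Its level was between 5.49 and 6.21 in WT and at least 7.77 in every mutant library. Nfkbia, the inhibitor of NF-kB and one of its early targets, was lower by −1.18, −0.83 and −1.06, and Cd69, an early activation antigen of lymphocytes, by −0.86, −0.86 and −1.25, each called in every mutant genotype. Zfp36l1, which destabilises short-lived mRNAs, was lower by −1.96 in DF, −1.15 in TF and −1.68 in TFD (adjusted p of 0.000757, 0.0168 and 0.00649), and in TF it was lost without TF replicate 1 (−1.02, adjusted p of 0.0667, against 3.62e-05 to 0.0667 over all alternatives), with values from −1.78 without TF replicate 3 to −0.81 without TF replicate 2. The paralogs of the members behaved unevenly. Egr3 was lower in DF by −1.09 (adjusted p of 0.00446) and in TF by −0.73 (adjusted p of 0.0344), with −0.65 in TFD (adjusted p of 0.0971), and Egr2, Nr4a2 and Nr4a3 were not called. Egr3 and the genes not called were named for their relation to the members after their values were seen.

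Among the other MAP kinase phosphatases were called genes of both directions. All 9 listed were tested, and 2 were called higher and 4 lower in DF, 1 and 3 in TF, and 1 and 4 in TFD, totals that became 7 in TF without TF replicate 3, 2 in TFD without WT replicate 3, and 3 in TFD without WT replicate 1 or either TFD replicate. These were 66.7%, 44.4% and 55.6% of the 9 genes, above the 37.6%, 34.6% and 26.3% of all tested genes, which is also the background of the next lists. Dusp3, which acts on ERK and JNK, was higher by 1.11, 1.16 and 1.32 (adjusted p of 0.000129, 0.000119 and 0.000111). Dusp2, an inducible nuclear phosphatase of leukocytes, was lower by −1.21, −0.82 and −1.26 (adjusted p of 4.41e-05, 0.000749 and 0.000135). Of 23 MAP kinases and kinases next to them, 56.5%, 52.2% and 39.1% were called. Of these 7 were called higher and 6 lower in DF, 6 and 6 in TF, and 6 and 3 in TFD, and the total in DF was 7 without WT replicate 3 and 8 without DF replicate 1. Mapkapk2, a substrate kinase of p38, was higher by 0.89, 0.71 and 0.74, and Mapk11, the beta form of p38, was lower by −3.62, −2.25 and −2.76, each called in every mutant genotype. Mapk11 had few reads in the mutants, at −3.06 to −0.44 log2 CPM in DF and −0.37 to 0.12 in TFD. Its calls held under all 19 alternatives, but its value ran from −4.01 to −2.27 in DF, −2.70 to −1.63 in TF and −3.01 to −1.87 in TFD. Of the 14 tested transcription factors and coactivators that act on immediate early promoters, 3 were called higher and 7 lower in DF, 3 and 3 in TF, and 3 and 0 in TFD, or 71.4%, 42.9% and 21.4%, and 6 in DF without DF replicate 2. Among them was Elk3, a partner of serum response factor, which was higher by 0.82, 0.81 and 0.84 (adjusted p of 0.000301, 0.00041 and 0.000761).

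Heat shock genes, which are read with immediate early genes as signs of cell stress, were lower. Of 15 listed, 14 were tested, and 0 were called higher and 12 lower in each mutant genotype, with medians of −0.97 in DF, −0.80 in TF and −0.91 in TFD. These were 85.7% of the list each time, whereas 16.6%, 15.6% and 11.6% of all tested genes were called lower. Hspa1b, an inducible Hsp70, was lower by −4.33, −2.03 and −4.12, and Hsph1, a cofactor of Hsp70, by −3.37, −2.61 and −2.86. Hspa1b was also lower in DF than in TF by −2.30 (adjusted p of 0.0103). Without TF replicate 3 Hsph1 was at −3.39 in TF. Bag3 and Hsp90ab1 were not called. The part of the heat shock genes in the difference of Atf3 was not tested.

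**Figure D4:**
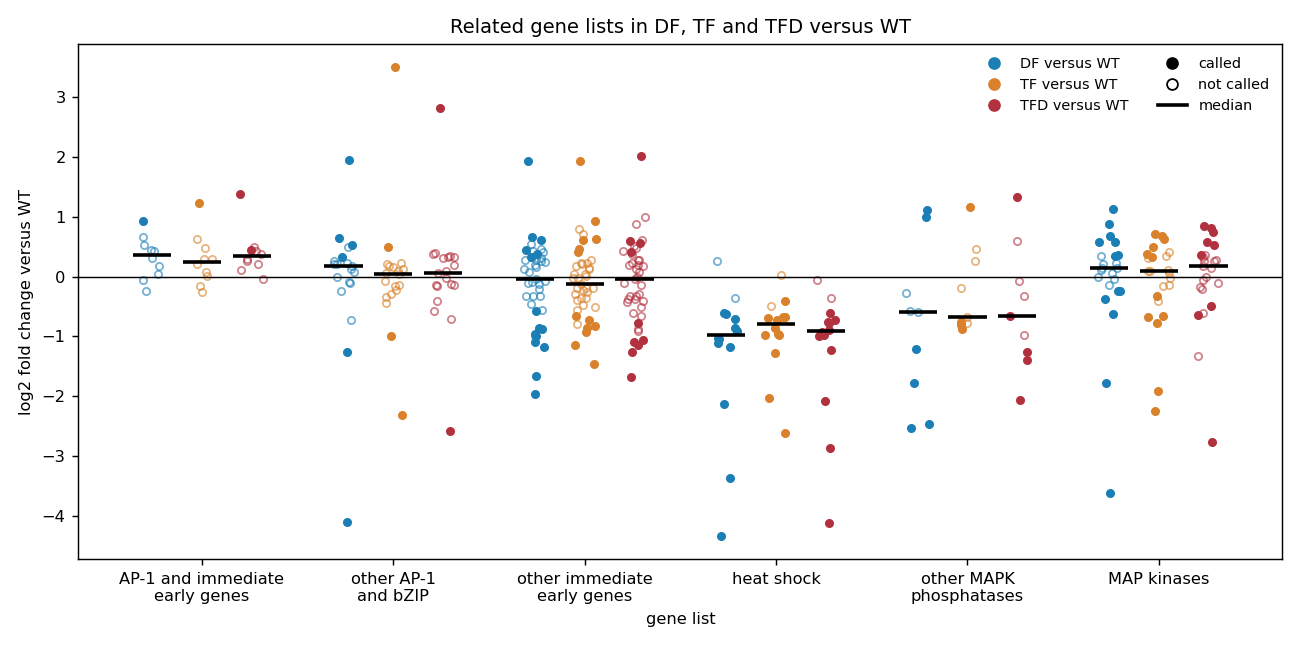
Log2 fold change (vertical axis) of each mutant genotype against WT for the genes of 6 lists (horizontal axis), with filled points for called genes and a bar for the median of the list. The heat shock medians, between −0.97 and −0.80, lie below 0 in each genotype, and those of the 10 AP-1 and immediate early genes lie between 0.25 and 0.36.

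Markers of marrow cell types moved with the genotypes as well. All 8 monocyte markers were in the table and none was at 0 throughout, and their summed CPM was 1750 to 1910 in WT, 5480 to 6200 in DF, 4900 to 6300 in TF and 5220 to 5300 in TFD. The 8 B cell markers summed to between 436 and 525 in WT, 15 and 24 in DF, 20.8 and 76.9 in TF, and 16 and 18.6 in TFD. The 8 erythroid markers summed to between 1340 and 1770 in WT, 290 and 423 in DF, 537 and 1420 in TF, and 501 and 633 in TFD. Maturing neutrophil markers, 10 of 10 present, gave 51900 to 65400 in WT, 58800 to 83100 in DF, 37000 to 47500 in TF and 23200 to 46700 in TFD. Macrophage markers, all 8 present, summed to 458 to 522 in WT and to lower values elsewhere, 299 to 368 in DF, 320 to 437 in TF and 305 to 364 in TFD. Of these 8, 1 was called higher and 7 lower in DF, 1 and 2 in TF, and 1 and 4 in TFD. Early granulocyte markers summed to 2980 to 3140 in WT, 4680 to 6490 in DF, 2750 to 4490 in TF and 3940 to 5740 in TFD. Stem and progenitor markers summed to 131 to 140 in WT and to 165 or more in every mutant library, but did not rise as a set. Of 6 tested, 2 were called higher and 1 lower in DF, 1 and 0 in TF, and 2 and 1 in TFD. Their median log2 fold changes were 0.42, −0.01 and 0.33. Plasmacytoid dendritic cell markers summed to 197 to 230 in WT, 67.3 to 77.4 in DF, 130 to 356 in TF and 85 to 136 in TFD, and those of T cells to 44.4 to 50.9, 15.2 to 26.5, 22.4 to 56.5 and 15 to 20.1. The summed CPM of NK cell markers overlapped WT in DF and TF, at 67.3 to 83.6 and 69.4 to 76.7 against 74.4 to 78.2, and lay at 46.9 to 68.5 in TFD. Singly, however, most NK markers fell. Of 6 tested, 4 were called lower in DF, 4 in TF, where 1 was called higher, and 3 in TFD. Their median log2 fold changes were −1.31, −1.38 and −1.65. Of all tested genes, 21%, 19% and 14.7% were called higher and 16.6%, 15.6% and 11.6% lower. The part of the marker shifts in the differences of Atf3 and Jun was not tested.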

How the data were processed

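Libraries were grouped by the genotypes of their sample labels, and table columns were matched to samples by title. The authors used STAR for alignment to mm10 and featureCounts to assign unique alignments to refGene models, and retained genes above 0.5 CPM in more than 3 samples. Versions, and whether strand was used in counting, are not given in the sources used here. The counts that the authors deposited are unnormalized. Their deposited log2 CPM values could be recomputed to within 5e-09 from the counts (TMM factors, prior count 0.25). A further deposited column of another kind, the gene length, is the exon length in bases and was used for levels per kilobase.

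From the counts, 12175 genes passing that filter over the 11 libraries were tested in R 4.3.3 with edgeR 4.0.16 (TMM factors, quasi-likelihood F test, a mean per genotype, Benjamini-Hochberg adjustment over all genes, threshold 0.05), and 24 genes were left out. Standard errors come from the F statistic, and intervals are 95%. With 8274153 to 15900904 reads a library, the spread between the 2 or 3 libraries of a genotype limits the precision for the members, while counting error also limits listed genes with few reads, such as Batf3 in WT. The alternatives were RLE factors, library totals, no filter, a minimum of 5 CPM, DESeq2 1.42.0, limma 3.58.1 on log2(CPM + 1), only the groups compared, a replicate block, an indicator of libraries where Xist had at least 10000 reads, a 2-fold minimum, and each library left out. For lists other than AP-1 and immediate early genes, and for single genes of any list, these alternatives were chosen after seeing the data. The members and the gene lists were chosen with earlier results of these data known. Named were the 10 members, up to 3 called genes of each list in each direction with the largest log2 fold change, and the 5 genes nearest to Fos and to Jun. Genes chosen after their values were seen are marked as such or are not called. Promoters are from RefSeq on GRCm38.p6. The procedure was also tested on simulated counts in which 200 of 12175 genes changed 2-fold in a genotype and all others were equal. Each gene was given the spread typical of its level. Of the changed genes, 163 were recovered in DF versus WT and 159 in TFD versus WT. These counts do not carry over to the members, several of which varied more than most genes of their level or differed less than 2-fold. Figures were drawn with matplotlib 3.10.9.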

Additional observations from a re-analysis of the deposited data

How the results depend on the processing

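Fold changes against WT of the members, and of listed genes in the comparisons where the rule named them, were recomputed under 20 alternatives, or 19 for the genes that the minimum of 5 CPM removed, and each count of calls also with a 2-fold minimum, those for related lists other than AP-1 and immediate early genes having been added after seeing the data. The differences of Fos, Jun, Ier2, Nr4a1 and Atf3 kept their direction throughout. The call of Atf3 was kept under 14 alternatives in DF, 20 in TF and 19 in TFD. In DF it was lost with DESeq2 (adjusted p = 0.0601) and limma (adjusted p = 0.0516) and without the libraries named with its value. The call of Jun in TFD was kept under 12 and was lost with a minimum of 5 CPM (adjusted p = 0.0507), limma (adjusted p = 0.0514), only the groups compared (adjusted p = 0.0838) and without the libraries named with its value.

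The number of members called in DF, 1, became 0 with limma or a 2-fold minimum, 3 with only the groups compared, and 0 to 5 with a library left out. In TF, 1 became 2 with DESeq2 and 1 to 2 with a library left out. In TFD, 2 became 1 with a minimum of 5 CPM, limma, only the groups compared or a 2-fold minimum, and 1 to 2 with a library left out. The other AP-1 genes called, 6 in DF, 4 in TF and 2 in TFD, became 3 in DF and 2 in TF with a 2-fold minimum, 2 in TF and 1 in TFD with a minimum of 5 CPM, and 2 to 7, 2 to 4 and 2 to 3 with a library left out. The other immediate early genes called, 15, 13 and 10, became 5, 3 and 6 with a 2-fold minimum, and 9 to 17, 8 to 16 and 5 to 15 with a library left out. The 2-fold minimum removes smaller changes by construction, and other causes were not tested.

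Signs turned for some uncalled values. With library totals Jund was −0.048 in DF. Fosb in TF was −0.0053 with RLE factors, −0.0014 with a minimum of 5 CPM and −0.0054 with DESeq2. With a library left out, the log2 fold change in DF ran from −0.16 to 0.051 for Fosb, −0.14 to 0.19 for Jund and −0.17 to 0.41 for Egr1. In TF it ran from −0.084 to 0.10 for Fosb, −0.11 to 0.17 for Jund and −0.31 to 0.031 for Egr1. In TFD it ran from −0.27 to 0.57 for Junb, −0.068 to 0.22 for Jund, −0.14 to 0.63 for Egr1 and −0.23 to 0.14 for Dusp1.

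With the replicate number as a block, 4 members were called in DF, 3 in TF and 3 in TFD, all higher. Of all genes, 36.9%, 34.2% and 22.4% were called in either direction, and 2516, 2288 and 1566 of 12175 were called higher. The members were Atf3 and Nr4a1 in each (Nr4a1 adjusted p = 0.00462, 0.0054 and 0.0278), Junb in DF (0.54, adjusted p = 0.0103) and TF (0.52, adjusted p = 0.0134), and Jun in DF (adjusted p = 0.0484) and TFD (adjusted p = 0.0185). Dusp1 in TFD was 0.016. The numbers were not taken as pairs, since libraries of the same number deviated together (correlation over 0.1) in 3 of 15 combinations and libraries of different numbers in 7 of 30, and 4 of 11 libraries correlated best with one of their own number. Among the 10 members, however, 7 to 10 lay above the genotype mean in replicate 1 of each genotype and 7 to 10 below it in replicate 2. Deviations within a genotype sum to 0 by construction, and those of the 2 TFD libraries are mirror images. The counts and correlations above are therefore not independent of one another. Having 2 or 3 libraries a genotype limits what could be detected.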
